A study of Mus musculus with 6 samples.

Results

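MHC class II molecules present peptides to CD4+ T cells, and the genes described here are those of their chains, of the chaperone and peptide-exchange proteins that load them, and of the coactivator that switches them on. They were 8 of the 37305 genes in an FPKM table of mouse regulatory T (Treg) cells, taken by gene name: Cd74, H2-Aa, H2-Ab1, H2-Eb1, H2-DMa, H2-DMb1, H2-Oa and Ciita. The name Ciita stood on 2 rows, and the row with the higher mean was taken. They were chosen by measured values, since the FPKM of Cd74 in all 6 libraries and its high level in the libraries numbered 1 were already known. The contrast of those libraries with the rest is therefore given only as a description, and the Cd74 levels by genotype were known as well. All 8 reached a mean of 1 FPKM over the 6 libraries and were tested. In the mm9 annotation Cd74 lies on chromosome 18, Ciita on chromosome 16 and the other 6 genes on chromosome 17.

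The cells were CD4+CD25+ Treg cells sorted from spleens of C57BL/6 mice aged 6 to 12 weeks. The control group was 3 libraries from Junb fl/fl mice (JUNBFl/Fl in the labels), in which loxP sites flank Junb. The Junb-deficient group was 3 libraries from Cd4Cre Junb fl/fl mice (Cd4cre JUNBFl/Fl in the labels), in which the Cd4 promoter drives Cre recombinase in the T cell lineage as a whole, not in Treg cells alone. The floxed allele is common to both groups, and no control carried Cre without it. The libraries carry the group's name and a number from 1 to 3.

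In the endoplasmic reticulum, the alpha and beta chains of class II pair with the invariant chain, CD74, which blocks the groove and steers the complex to endosomes. There CD74 is cut down to the CLIP peptide, H2-DM exchanges CLIP for other peptides, and H2-O holds H2-DM back. Transcription of these genes depends largely on CIITA, which binds no DNA itself and is recruited by RFX, CREB and NF-Y proteins at the X and Y boxes of class II promoters. B cells, dendritic cells and macrophages make class II constantly or on induction, whereas resting mouse T cells make little. C57BL/6 mice make the I-A molecule (H2-Aa with H2-Ab1) but no surface I-E, because the alpha chain gene of I-E is not transcribed in this haplotype, although its partner H2-Eb1 is.

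The 6 genes of chromosome 17 lie within 223.86 kb of mm9, from H2-Oa to H2-Eb1. H2-Ab1 (chr17:34400154-34406363, plus strand) and H2-Aa (chr17:34406276-34424772, minus strand) overlap by 88 bases at their 3′ ends in the annotation. H2-Eb1 spans chr17:34442828-34453144, H2-DMb1 chr17:34290017-34297168, H2-DMa chr17:34272127-34276046 and H2-Oa chr17:34229285-34232179, all on the plus strand. RefSeq promoter windows (GRCm38.p6, 250 bases before to 50 after a start) were found for 5 of the 8 genes, H2-Aa, H2-DMa, H2-DMb1, H2-Eb1 and H2-Oa. Those of H2-DMa lie upstream of its annotated gene, held no match to the X core searched for below, and are not shown. The 250 bases before the start are shown for a strongly varying chain gene with each motif arrangement and for H2-Oa, whose level hardly varied. Capitals mark matches on either strand to ACNGATG, searched for as the core of the X box, and to GATTGG, searched for as the Y box. A match on the other strand appears as its reverse complement.
H2-Eb1 (chr17:34305617-34305866, plus): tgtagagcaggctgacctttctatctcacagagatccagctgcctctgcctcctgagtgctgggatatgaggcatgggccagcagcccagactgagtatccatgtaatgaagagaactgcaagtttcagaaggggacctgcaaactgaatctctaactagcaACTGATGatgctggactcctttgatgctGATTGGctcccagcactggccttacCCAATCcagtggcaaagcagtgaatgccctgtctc
H2-DMb1 (chr17:34152941-34153190, plus): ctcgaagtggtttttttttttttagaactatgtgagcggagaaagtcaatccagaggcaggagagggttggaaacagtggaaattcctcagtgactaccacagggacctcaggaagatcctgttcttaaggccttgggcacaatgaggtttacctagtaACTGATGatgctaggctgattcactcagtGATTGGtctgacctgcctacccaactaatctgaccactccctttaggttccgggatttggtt
H2-Aa (chr17:34287824-34288073, minus): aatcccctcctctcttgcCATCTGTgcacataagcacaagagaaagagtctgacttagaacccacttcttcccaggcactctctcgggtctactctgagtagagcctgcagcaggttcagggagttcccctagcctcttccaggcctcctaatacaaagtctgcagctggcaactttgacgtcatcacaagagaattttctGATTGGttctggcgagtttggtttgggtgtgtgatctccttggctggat
H2-Oa (chr17:34092129-34092378, plus): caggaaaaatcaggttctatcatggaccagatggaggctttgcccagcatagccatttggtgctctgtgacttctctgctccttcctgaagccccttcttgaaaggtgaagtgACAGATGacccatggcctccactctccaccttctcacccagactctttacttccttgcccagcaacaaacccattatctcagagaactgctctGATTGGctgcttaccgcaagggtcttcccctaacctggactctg

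Counting from -1 just before the start, the X core of H2-Eb1 began at -88 and its Y box at -60, with 21 bases between them. In H2-DMb1 they began at -91 and -62, with 22 bases between. Both genes thus carry the 2 elements on the same strand at the short spacing in which RFX and NF-Y are known to sit side by side. H2-Aa and H2-Oa had a Y box at -49 and -44, but their only ACNGATG lay far upstream of it, at -232 (other strand) and -137. An X box with other letters would be missed, so the search does not show that H2-Aa and H2-Oa lack the short spacing. Of 32851 RefSeq promoter windows, 9.85% held the X core and 16.1% the Y box. The X core followed by the Y box after 10 to 30 bases was found in 20 windows (0.0609%) of 18 genes. Of these genes, 4 were members or other listed genes of the class II pathway: H2-Eb1, H2-Eb2, H2-DMb1 and H2-DMb2. A match is a description of these letters and not a measured binding site.

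The genotype was checked on Junb, which held 19.6%, 16.5% and 14.8% of its control's FPKM in the Junb-deficient libraries 1, 2 and 3, from 921, 298 and 256 FPKM in the controls. Both libraries numbered 1 stood apart from the other 4 in many genes, and their titles have no lane suffix, unlike the rest. Estimated from very low values, sequencing depth was 0.36 to 0.80 of that of control 1 in the other libraries, and 11437 to 11800 genes reached 1 FPKM. The Y-linked Ddx3y was at 25.6, 30.6 and 21.5 FPKM in the controls and at 19.3, 22.5 and 0.00766 in the Junb-deficient libraries. Xist, made by female cells, was at 8.30, 0.0145 and 8.35 FPKM in the controls and at 17.9, 0.0239 and 54.0 in the Junb-deficient libraries. Controls 1 and 3 and Junb-deficient 1 thus held both RNAs, and number 3 pairs libraries that differ in sex-linked RNA. No source used here says whether the libraries stem from separate mice, but sex-linked RNA differed between libraries of the same genotype. Those libraries therefore do not hold RNA of the same mice alone. The p-values measure only the spread between these samples, which may be technical in part. In bulk RNA, more cells of a class II-positive type and more class II RNA per cell cannot be told apart.

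The class II chains and the invariant chain were well measured in the sorted cells, and their levels differed several-fold between libraries. FPKM is scaled by transcript length, so levels can be set side by side between genes. Cd74 was the highest of the 8 in every library, with 648, 113 and 97.4 FPKM in controls 1, 2 and 3, and 753, 194 and 189 FPKM in the Junb-deficient libraries 1, 2 and 3. It ranked between 88 (Junb-deficient 1) and 1017 (control 3) among all 37305 genes. H2-Aa, the alpha chain of I-A, was at 230, 32.0 and 35.6 FPKM in the controls and at 259, 104 and 72.4 in the Junb-deficient libraries. H2-Ab1, the I-A beta chain, was at 223, 21.8 and 43.3 FPKM in the controls and at 291, 80.9 and 53.6 in the Junb-deficient libraries. The beta chain of I-E, H2-Eb1, was at 225, 26.0 and 21.6 FPKM in the controls and at 305, 81.6 and 60.4 in the Junb-deficient libraries. For all 4 genes the libraries numbered 1 were highest in both genotypes, and the Junb-deficient library lay above the control of the same number, so the genotypes overlap over all 6 libraries but not within numbers 2 and 3. The order of H2-Aa, H2-Ab1 and H2-Eb1 changed from library to library, and H2-Ab1 and H2-Eb1 each stayed within 2-fold of H2-Aa. H2-Ea-ps, the annotated remnant of the I-E alpha chain, was listed at 0 in all 6 libraries.

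**Figure D1:**
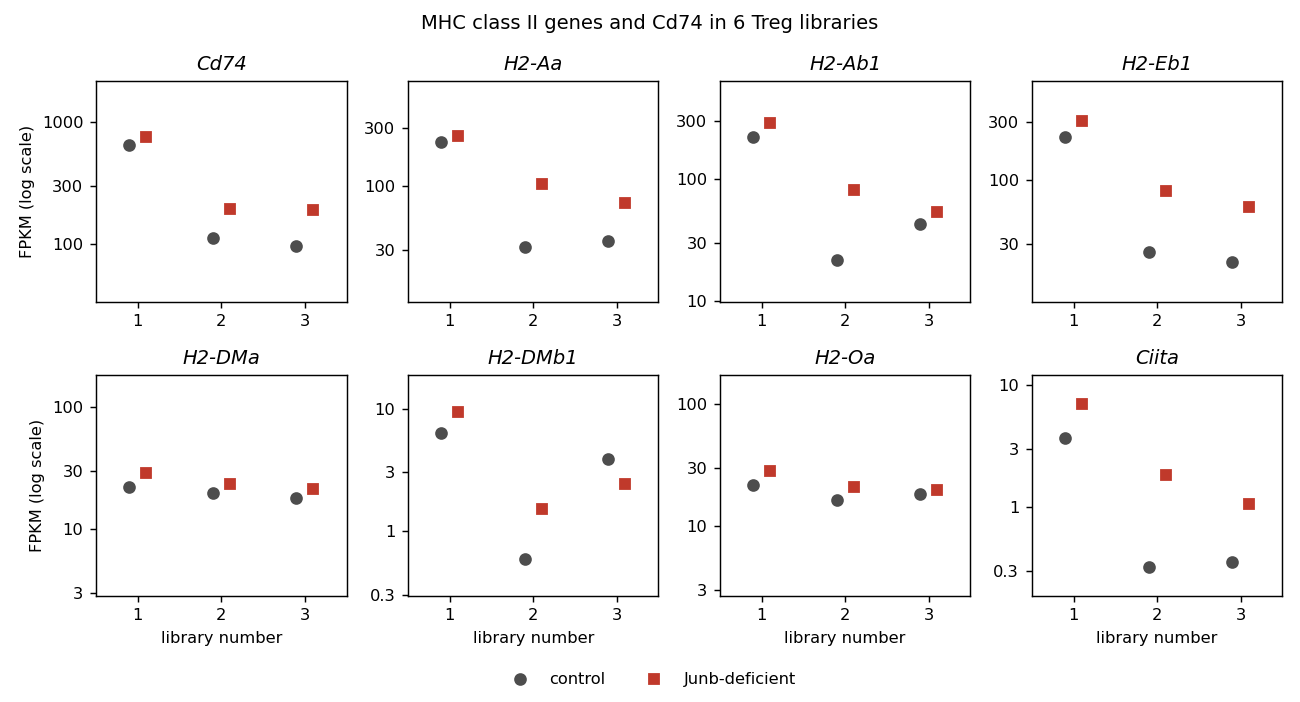
FPKM of the 8 genes (log scale, the same span of fold in each panel) by library number, with circles for control and squares for Junb-deficient libraries, 1 point a library. Cd74, H2-Aa, H2-Ab1, H2-Eb1 and Ciita are highest in number 1 of both genotypes and higher in the Junb-deficient library of every number, whereas H2-DMa and H2-Oa stay between 16.5 and 28.8 FPKM.

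The genotypes were first compared over all 6 libraries without pairing, on log2(FPKM + 1) with limma, where a call needed a log2 difference beyond 0.5 and p under 0.05 before adjustment. None of the 8 genes passed in either direction (0 higher and 0 lower), where 1.67% of the 11781 genes tested were called higher and 2.89% lower, and 0% passed an adjusted p of 0.05. An unadjusted p under 0.05 was reached by 0 of the 8 genes and by 636 of all genes tested. The log2 differences, Junb-deficient minus control, were all above 0, with a median of 0.74 beside -0.05 over all genes tested, and all 8 stayed above 0 after median-ratio or quantile scaling. H2-Eb1 differed most, by 1.17 (SE 0.96, adjusted p = 0.848), followed by H2-Aa at 0.95 (SE 0.80, adjusted p = 0.848). H2-Ab1 differed by 0.84 (SE 0.91, adjusted p = 0.867) and Cd74 by 0.65 (SE 0.83, adjusted p = 0.886). Their 95% intervals were wide, from -1.08 to 3.41 for H2-Eb1 and from -1.29 to 2.58 for Cd74, with 1 library of several times the level of the other 2 in each genotype. Without control 1, 5 of the 8 were called higher, where 6.73% of all genes were, and leaving out any other single library left the count at 0. Cd74 averaged 286 ± 313 FPKM over the controls and 379 ± 324 FPKM over the Junb-deficient group (SD, n = 3 each).

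Same-numbered libraries deviated together across genes, most clearly in number 1, so the comparison was also made within numbers. Control 3, however, correlated more with Junb-deficient 2 (0.41) than with Junb-deficient 3 (0.24). No source used here says that same-numbered libraries share a batch, so the pairing within numbers 2 and 3 is an assumption. In the limma fit with the replicate number as a block, 5 of the 8 genes passed the thresholds as higher in Junb-deficient Treg cells, where 3.58% of all genes tested did: H2-Eb1 (adjusted p = 0.171), H2-Aa (adjusted p = 0.235), Ciita (adjusted p = 0.259), Cd74 (adjusted p = 0.265) and H2-Ab1 (adjusted p = 0.275). The SE of the H2-Eb1 difference was 0.24 in this fit instead of 0.96. All 5 had the unadjusted p that the call needs, and none passed an adjusted p of 0.05. A term for the lane suffix in place of the number, which parts the same 2 libraries from the rest, also called 5 of the 8 higher, where 3.52% of all genes were.

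**Figure D2:**
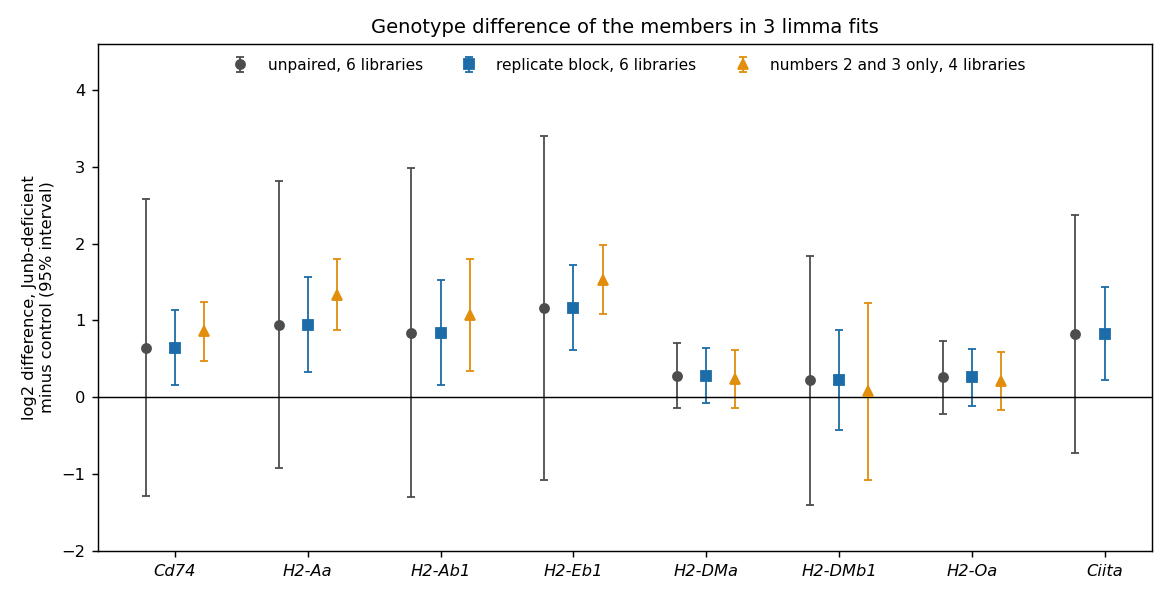
Log2 difference between genotypes with its 95% interval for each gene in 3 limma fits, over 6 libraries unpaired (circles), over 6 libraries with the replicate block (squares) and over numbers 2 and 3 only (triangles, Ciita not tested). The unpaired intervals of all 8 genes cross 0, and those of the other fits lie above 0 for Cd74, H2-Aa, H2-Ab1 and H2-Eb1.

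Without the libraries numbered 1, the class II chain genes separated by genotype. In numbers 2 and 3 alone, both Junb-deficient libraries lay above both controls for 7 of the 8 genes, where 22.1% of all genes tested did so. The lower Junb-deficient value was 2.33 times the higher control value for H2-Eb1, 2.04 times for H2-Aa, 1.67 times for Cd74 and 1.24 times for H2-Ab1. In a limma fit of these 4 libraries, 4 of the 7 genes still tested were called higher, where 6.74% of 11572 genes were higher and 13.2% lower. H2-Eb1 rose by 1.53 on the log2 scale (SE 0.20, adjusted p = 0.0283), H2-Aa by 1.34 (SE 0.20, adjusted p = 0.0352) and Cd74 by 0.86 (SE 0.17, adjusted p = 0.0499), with limma and Benjamini-Hochberg adjustment. These 3 passed an adjusted p of 0.05 as higher, as did 0.89% of all genes, while H2-Ab1 did not (1.07, SE 0.32, adjusted p = 0.0962). The 8 genes were chosen with earlier results of these data known, among them the Cd74 levels by genotype. Their p-values in this and the other fits are therefore descriptive only. The median difference of the members was 0.86 in this fit, beside -0.10 over all genes. With 2 libraries a group, the spread behind these values is largely borrowed from other genes.

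Taken number by number, the direction was shared and the size was not. The Junb-deficient library was above its control in all 3 numbers for 7 of the 8 genes, as it was for 15.7% of all genes tested, and H2-DMb1 was the exception. In number 1 the ratio of Junb-deficient to control FPKM was 1.16 for Cd74, 1.12 for H2-Aa, 1.30 for H2-Ab1 and 1.36 for H2-Eb1. In number 2 these ratios were 1.72, 3.24, 3.72 and 3.14, the widest gap for each of the 3 chain genes but not for Cd74. In number 3 they were 1.94, 2.04, 1.24 and 2.80. Over all genes tested, the median log2 difference within numbers 1, 2 and 3 was 0.01, -0.12 and -0.03. Summed over Cd74, H2-Aa, H2-Ab1 and H2-Eb1, the Junb-deficient library held 1.21, 2.39 and 1.90 times the FPKM of its control.

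**Figure D3:**
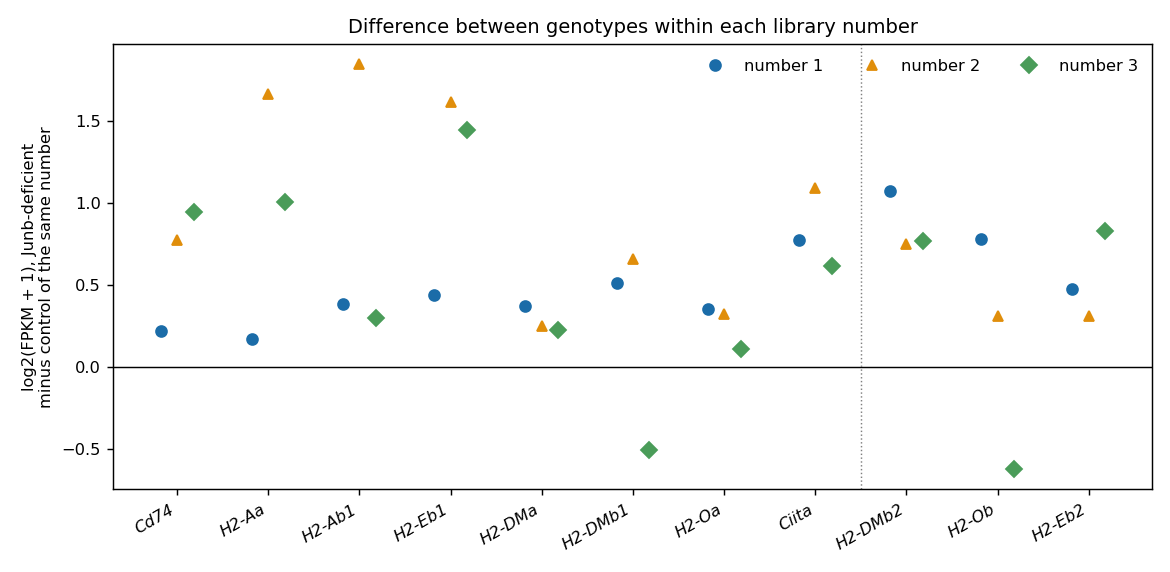
Difference in log2(FPKM + 1) between the Junb-deficient and the control library of the same number, with circles, triangles and diamonds for numbers 1, 2 and 3, for the 8 genes (left of the dotted line) and for H2-DMb2, H2-Ob and H2-Eb2. Points lie above 0 except those of H2-DMb1 and H2-Ob in number 3, and number 1 gives the smallest gap for Cd74, H2-Aa and H2-Eb1.

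The genes of the peptide-exchange machinery did not behave as a block. H2-DMa, the alpha chain of H2-DM, was at 22.1, 19.8 and 18.2 FPKM in the controls and at 28.8, 23.7 and 21.4 in the Junb-deficient libraries. Its highest library held 1.59 times the lowest, against 14.2 times for H2-Eb1. Its difference was 0.28 (95% interval -0.14 to 0.70, limma adjusted p = 0.839), and it was called in none of the 3 fits. H2-Oa, the alpha chain of the H2-DM antagonist H2-O, was at 21.8, 16.5 and 18.1 FPKM in the controls and at 28.1, 20.8 and 19.6 in the Junb-deficient libraries. Its difference was 0.26 (95% interval -0.21 to 0.73, limma adjusted p = 0.848). H2-Ob, the beta chain of H2-O, was at 16.2, 19.3 and 25.9 FPKM in the controls and at 28.5, 24.1 and 16.5 in the Junb-deficient libraries, so its order between genotypes turned over in number 3. In every library H2-DMa and H2-Oa held the places just below Cd74 and the 3 class II chains.

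H2-DMb1 and H2-DMb2 are alternative beta chains of H2-DM whose coding sequences of 786 bases are 95.9% identical, so reads may be split between them in a way the counting decides. H2-DMb1 was at 6.26, 0.59 and 3.84 FPKM in the controls and at 9.36, 1.51 and 2.40 in the Junb-deficient libraries. It was the only member that was lower in a Junb-deficient library than in its control, in number 3, and its difference of 0.22 had an interval from -1.40 to 1.84 (limma adjusted p = 0.955). H2-DMb2 was at 8.97, 1.75 and 2.67 FPKM in the controls and at 19.9, 3.63 and 5.25 in the Junb-deficient libraries, higher in every number. Its difference of 0.86 was not called in the unpaired fit and was called with the replicate block (adjusted p = 0.183), with the lane suffix term and in numbers 2 and 3 alone. Added together, the FPKM of both beta chains of H2-DM came to 15.2, 2.34 and 6.51 FPKM in the controls and at 29.3, 5.14 and 7.65 in the Junb-deficient libraries. The sum was 1.92, 2.19 and 1.17 times higher in the Junb-deficient library of numbers 1, 2 and 3. H2-Eb2, a class II beta chain gene next to H2-Eb1 whose promoter also held both boxes, was at 3.35, 0.608 and 0.385 FPKM in the controls and at 5.04, 0.992 and 1.46 in the Junb-deficient libraries.

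Ciita, the main switch of class II transcription, was low and varied widely. Its values were 3.67, 0.327 and 0.354 FPKM in the controls and 6.99, 1.83 and 1.07 FPKM in the Junb-deficient libraries. Its highest library held 21.4 times the lowest, the widest range of the 8 genes. Within numbers 1, 2 and 3 the Junb-deficient library held 1.90, 5.60 and 3.03 times the FPKM of its control. The difference of 0.83 on log2(FPKM + 1) understates such a low gene (limma adjusted p = 0.848 unpaired and 0.259 with the replicate block). Without the libraries numbered 1 its mean fell under 1 FPKM and it was not tested.

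The other genes of the class II pathway were read from a list of 19, of which 17 were in the table and 15 were tested. On the unpaired test 1 was higher and 1 lower, where 1.67% of all genes tested were higher and 2.89% lower, and the median difference was -0.03. The gene that rose was Rfx5, a subunit of the RFX complex that binds the X box, at 11.4, 9.15 and 6.64 FPKM in the controls and 14.1, 15.5 and 16.8 in the Junb-deficient libraries. All 3 Junb-deficient libraries lay above all 3 controls, as they did for 4.58% of all genes tested and for 0 of the 8 members, and the difference was 0.74 (SE 0.22, limma adjusted p = 0.834 unpaired and 0.237 with the replicate block). The other RFX subunits gave no such call, with Rfxap at 12.3, 15.5 and 11.2 FPKM in the controls and 10.8, 7.11 and 10.2 in the Junb-deficient libraries, and Rfxank at 9.27, 11.9 and 13.4 against 8.29, 9.03 and 10.05. The NF-Y subunits Nfya, Nfyb and Nfyc, which bind the Y box, and the X box factor Creb1 were not called in the unpaired or the block fit. Rfxap was lower in all 3 Junb-deficient libraries than in all 3 controls, and the share of all genes with this pattern was not counted. In numbers 2 and 3 alone, where 13.2% of all genes were called lower, so were Rfxap (-0.58, limma adjusted p = 0.167) and Nfyb (-0.59, adjusted p = 0.162).

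Among the genes that process antigen and the invariant chain, the gene that fell was Lgmn, an asparagine-specific endopeptidase of the endosome. It was at 41.3, 13.3 and 19.8 FPKM in the controls and at 11.1, 7.27 and 8.59 in the Junb-deficient libraries, a difference of -1.24 (SE 0.39, limma adjusted p = 0.834 unpaired and 0.0959 with the replicate block). All 3 Junb-deficient values lay below all 3 controls, a pattern whose share over all genes was not counted. Ctss, the cathepsin that makes the last cuts in the invariant chain, was at 159, 268 and 241 FPKM in the controls and at 161, 189 and 176 in the Junb-deficient libraries. Ctsl and the thiol reductase Ifi30 were highest in the libraries numbered 1 of both genotypes and were not called, with differences of -0.31 and -0.03. March1, which marks class II for degradation and which the table lists under a date in place of its name, was at 2.04, 0.148 and 0.357 FPKM in the controls and at 3.62, 0.413 and 0.118 in the Junb-deficient libraries. March8, of the same ligase family, had a mean under 1 FPKM and was not tested.

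The chain genes kept a narrow ratio to each other while their levels moved. H2-Ab1 stood at 0.681 to 1.22 times the FPKM of H2-Aa over the 6 libraries, and H2-Eb1 at 0.606 to 1.18 times. Cd74 was 1.87 to 3.53 times H2-Aa. Each of these ratios spanned less than 2-fold (1.79-, 1.95- and 1.89-fold), whereas H2-Aa itself spanned 8.08-fold. The ratio of Cd74 to H2-Aa was lowest in Junb-deficient 2 (1.87) and highest in control 2 (3.53), so in number 2 H2-Aa differed more between genotypes than Cd74 did. The ratio of H2-DMb2 to H2-DMb1 was looser, from 0.694 in control 3 to 2.97 in control 2.

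The libraries numbered 1 had been the reason to look at these genes, and the size of that contrast is given with no test. Both libraries numbered 1 lay above the other 4 for 7 of the 8 genes, as for 18.9% of all genes tested. The mean of the libraries numbered 1 was 5.95 times that of the other 4 for Ciita, 5.60 times for H2-Eb1, 5.16 times for H2-Ab1, 4.73 times for Cd74 and 4.01 times for H2-Aa. H2-DMb1 followed at 3.74 times. For H2-Oa and H2-DMa the ratio was 1.33 and 1.23, and for H2-DMa the libraries overlapped, since Junb-deficient 2 (23.7 FPKM) was above control 1 (22.1 FPKM).

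Whether other cells contributed class II RNA was examined with marker lists of B cells, myeloid cells and dendritic cells. Of 13 B cell genes, 12 were tested and 0 were called in the unpaired fit, with a median difference of 0.37, and 4 were called higher in the block fit (Cd79a, Cd22, Blk and Ebf1), where 3.58% of all genes were. In numbers 2 and 3 alone, 0 of the 8 B cell genes still tested were called. Cd79a, a chain of the B cell receptor, was at 4.85, 1.17 and 1.53 FPKM in the controls and at 14.1, 1.17 and 4.15 in the Junb-deficient libraries. Ms4a1, which encodes CD20, was at 2.28, 1.22 and 2.06 FPKM in the controls and at 7.17, 0.982 and 1.45 in the Junb-deficient libraries. In number 1 the Junb-deficient library held 2.91 and 3.14 times the FPKM of its control for Cd79a and Ms4a1. In number 2, where the class II chains differed most, these ratios were 0.996 and 0.808, and in number 3 they were 2.71 and 0.702. Of the 13 B cell genes, 4 were higher in the Junb-deficient library of every number, as were 15.7% of all genes tested. The ratios in numbers 1, 2 and 3 were 2.95, 9.30 and 1.92 for Blk, a kinase of the B cell receptor, 1.88, 5.09 and 3.57 for the lineage factor Ebf1, and 2.49, 1.38 and 2.18 for the receptor Cd22. For Pax5 they were 2.71, 1.02 and 1.40. Blk and Ebf1 rested on low values, at 0.131 and 0.602 FPKM in control 2 and 1.22 and 3.07 FPKM in Junb-deficient 2. No B cell marker was at 0 in any library.

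The summed B cell list without Ighm was 43.6, 31.6 and 31.4 FPKM in the controls and 84.5, 32.3 and 37.0 in the Junb-deficient libraries. Within numbers 1, 2 and 3 the Junb-deficient library held 1.94, 1.02 and 1.18 times the sum of its control, against 1.21, 2.39 and 1.90 times for the sum of Cd74, H2-Aa, H2-Ab1 and H2-Eb1. The largest single part of that sum was Cd79b, which lay between 17.6 and 24.3 FPKM in all 6 libraries. Without Cd79b as well, the B cell sum was 2.31, 1.29 and 1.56 times its control in numbers 1, 2 and 3. Ighm, the mu heavy chain, was at 533, 699 and 646 FPKM in the controls and at 431, 453 and 511 in the Junb-deficient libraries, below all controls. The ratio of H2-Aa to Cd79a was 47.4, 27.3 and 23.2 in the controls and 18.3, 88.8 and 17.4 in the Junb-deficient libraries, a 5.09-fold span against the less than 2-fold span among the class II chains.

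**Figure D4:**
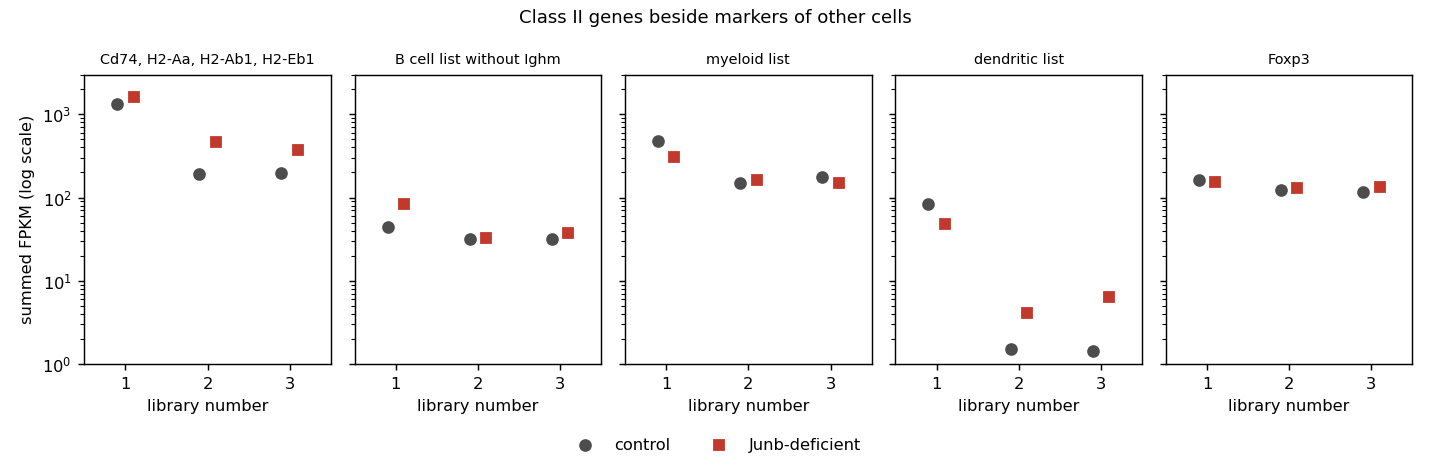
Summed FPKM (log scale) by library number of Cd74, H2-Aa, H2-Ab1 and H2-Eb1, of the B cell list without Ighm, of the myeloid and dendritic lists, and of Foxp3 alone, with circles for control and squares for Junb-deficient libraries. In numbers 2 and 3 the class II sum is 375 to 460 FPKM in Junb-deficient libraries and 193 to 198 in controls, and the dendritic sum is also higher there, at 4.15 to 6.32 against 1.419 to 1.503. Cst3 is the largest single part of the myeloid sum in every library.

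Of 17 myeloid genes in the table, 15 were tested and 0 were called in the unpaired fit, with a median difference of -0.36. Their sum was 149 to 471 FPKM in controls and 149 to 307 in Junb-deficient libraries, and both libraries numbered 1 lay above the other 4 for 15 of the 17, as for 18.9% of all genes tested. Cst3 was the largest single part of that sum, at 116 and 130 FPKM of 149 and 174 in controls 2 and 3. In Junb-deficient 2 and 3 it was 80.5 and 85.3 FPKM of 162 and 149. The sum therefore does not show how the other myeloid genes moved. The myeloid lysozyme Lyz2 was at 28.9, 1.27 and 3.73 FPKM in the controls and at 17.1, 0.947 and 2.43 in the Junb-deficient libraries, lower in the Junb-deficient library of each number. Csf1r, the receptor of macrophage growth factor, was at 11.4, 1.02 and 1.83 FPKM in the controls and at 8.17, 0.726 and 2.40 in the Junb-deficient libraries. The complement gene C1qa was at 12.4, 2.14 and 0.931 FPKM in the controls and at 8.15, 0.315 and 1.32 in the Junb-deficient libraries, and Cst3, expressed by many cells, at 114, 116 and 130 against 97.4, 80.5 and 85.3. In numbers 2 and 3, both Junb-deficient libraries lay above both controls for 4 of the 17 genes, beside 22.1% of all genes tested. They lay below both controls for 4 others, and the share of all genes that did so was not counted. The 4 above were Tyrobp and Fcer1g, adaptors shared by myeloid and natural killer cells, with Mpeg1 and Fcgr3. Mpeg1 was at 39.4, 0.811 and 1.21 FPKM in the controls and 16.4, 1.39 and 2.58 in the Junb-deficient libraries. Fcgr3 was at 2.81, 0.351 and 0.591 against 1.72, 1.52 and 0.914. Tyrobp was at 110.5, 5.951 and 6.9996 FPKM in the controls and at 60.0, 22.9 and 14.9 in the Junb-deficient libraries, and Fcer1g at 65.5, 12.2 and 14.9 against 32.5, 47.5 and 29.1. In numbers 2 and 3 alone both rose, Tyrobp by 1.39 on the log2 scale (limma adjusted p = 0.0379) and Fcer1g by 1.40 (adjusted p = 0.0383), about as much as H2-Aa, while Cst3 and Cd68 were called lower. Cd14, Clec7a, S100a8 and S100a9 were at 0 in 1 or more of the libraries numbered 2 and 3.

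Of 8 dendritic cell genes, 6 were tested and 0 were called in the unpaired fit, with a median of 0.09. The sum of the list was 83.5, 1.503 and 1.419 FPKM in the controls and 48.1, 4.15 and 6.32 in the Junb-deficient libraries, so in numbers 2 and 3 it moved with the class II genes. Zbtb46, a factor of classical dendritic cells, was the largest single part of that sum in Junb-deficient 2 and 3 and was called higher in the block fit and in numbers 2 and 3 alone, at 2.47, 0.782 and 0.307 FPKM in the controls and 4.13, 2.78 and 2.03 in the Junb-deficient libraries. Flt3, the growth factor receptor of dendritic precursors, was at 5.09, 0.219 and 0.244 FPKM in the controls and 4.96, 0.510 and 0.998 in the Junb-deficient libraries. Itgax, which encodes CD11c, was at 6.69, 0.0830 and 0.247 FPKM in the controls and 10.1, 0.0698 and 0.346 in the Junb-deficient libraries. Siglech, of plasmacytoid dendritic cells, was at 55.8, 0.147 and 0.471 FPKM in the controls and 19.5, 0.508 and 1.91 in the Junb-deficient libraries. Clec9a, Cd209a and Clec10a were at 0 in 1 or more of the libraries numbered 2 and 3. The class II sum was 15.9 and 33.4 times the dendritic sum in control 1 and Junb-deficient 1, and 59.3 to 139 times in the other 4 libraries. The part of B cell, myeloid or dendritic RNA in the class II differences was not tested.

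The sorted cells carried the labelled identity in every library. Foxp3, the factor that defines Treg cells, was at 161, 123 and 115 FPKM in the controls and at 153, 130 and 135 in the Junb-deficient libraries. Per Foxp3, the class II sum was 8.23, 1.57 and 1.72 in the controls and 10.5, 3.55 and 2.77 in the Junb-deficient libraries, which keeps the order of the class II levels. Cd3e lay between 267 and 378 FPKM. Of 7 tested genes of MHC class I, which most nucleated cells make, 0 were called in the unpaired or the block fit, with a median difference of -0.24, and B2m and Nlrc5 were called lower in numbers 2 and 3 alone. All 7 lay below 0 on the deposited scale, 6 after median-ratio and 4 after quantile scaling. B2m, the light chain of class I, was at 3828, 6098 and 5080 FPKM in the controls and at 3336, 3235 and 3434 in the Junb-deficient libraries. Nor did a list of 9 genes induced by interferon gamma or needed to sense it, a known inducer of Ciita, hold a call in the unpaired fit, and its median was -0.08. With the replicate block, where 7.2% of all genes were called lower, Cxcl10 (-0.95, limma adjusted p = 0.0943) and Gbp3 (-0.51, adjusted p = 0.313) were called lower, as they were in numbers 2 and 3 alone.

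Finally, the genes whose pattern over the 6 libraries was most like that of the class II chains were ranked by the root mean square distance of their centred log2 values from the mean profile of Cd74, H2-Aa, H2-Ab1 and H2-Eb1. These 4 took ranks 1, 3, 4 and 5 among 11781 genes by construction. Ciita, which was not part of the profile, took rank 17 (0.359 log2 units), H2-DMb2 rank 46 (0.470) and H2-Eb2 rank 93 (0.547). H2-DMb1 took rank 382, H2-Oa rank 1818, H2-DMa rank 2325 and H2-Ob rank 5225. The 10 closest other genes were Rel, Sik1, Sykb, Igkv1-117, Irs2, Ctsh, Kdm6b, Nfam1, Fgd2 and Fes, at 0.207 to 0.339 log2 units. Rel, a subunit of NF-kB, was nearest of these, at 71.0, 9.62 and 9.46 FPKM in the controls and 101, 18.9 and 21.3 in the Junb-deficient libraries. The markers of each list were spread widely. Myeloid genes lay from rank 20 (Tyrobp) to 6622 (Cst3), with Csf1r at 214 and Lyz2 at 666. Dendritic genes lay from rank 26 (Flt3) to 3376 (Siglech). B cell genes lay from rank 246 (Cd79a) to 8429 (Ighm), with Ms4a1 at 913. The 6 points share the step between the libraries numbered 1 and the rest, and the measure does not part that step from the difference between genotypes.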

How the data were processed

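Polyadenylated RNA of sorted Treg cells was sequenced with a strand-specific kit. The authors deposited FPKM, that is, fragments per length of transcript and per mapped fragment. The submitters' processing notes name TopHat2 2.2.1, Cufflinks and mm9. Read counts, and how strand and multiply matching reads were treated, are not given in the sources used here, so no counting intervals are given. The 8 genes and all lists were chosen with earlier results of these data known. All 37305 identifiers matched GENCODE vM1, which gave positions. For the libraries numbered 1, whose titles hold no number, columns were matched by elimination.

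The 11781 genes whose mean FPKM reached 1 were compared on log2(FPKM + 1) by limma 3.58.1 (R 4.3.3, trend on, 2-sided), and p-values were adjusted over all of them (Benjamini-Hochberg). With 3 against 3 libraries, the smallest p of an exact test is 0.1. Across genes, the correlation of deviations from the mean of the genotype was 0.57, 0.42 and 0.24 between same-numbered libraries and -0.53 to 0.41 between others. The 0.41 was between control 3 and Junb-deficient 2. The number was also used as a block, which for numbers 2 and 3 is an assumption. The fit was tested on simulated data. Named were the 8 genes, Junb, chosen markers of B, myeloid, dendritic and T cells, all pathway genes, members of other lists past the thresholds, and the 10 genes of closest profile. A single marker that this rule covers is not reported here. Genes outside this rule (Ddx3y, Xist, Pax5, Zbtb46, Tyrobp, Fcer1g, Mpeg1, Fcgr3 and those named as at 0 or as called with the block or in numbers 2 and 3 alone) were named after their values were seen. Other settings were a pseudocount of 0.1, no filter, a minimum mean of 5 FPKM, scaling by median ratios or quantiles, no trend, a lane suffix term, each library left out, both libraries numbered 1 left out, Ighm left out of the B cell sum, and an X core 1 base longer. Python 3.11.15 with pandas 2.3.3 made the tables.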

Additional observations from a re-analysis of the deposited data

How the results depend on the processing

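The unpaired count of 0 members called higher became 5 with the replicate block, 5 with the lane suffix term and 4 with both libraries numbered 1 left out. The block changed no other call among the 8. Leaving out 1 library in turn gave 0 to 5, and the 5 came without control 1. The count was 0 under the other pseudocount, filters, scalings and without trend, and no member was called lower under any setting. The median difference stayed above 0 throughout, from 0.15 without Junb-deficient 1 to 1.47 without control 1. With 1 library left out, the difference of Cd74 lay between -0.011 (without Junb-deficient 1) and 1.52 (without control 1). That of H2-DMb1 lay between -0.41 (without control 2) and 0.68 (without control 1), and was -0.39 without Junb-deficient 1. In number 1 the class II sum per B cell sum of the Junb-deficient library was 1.36 times that of its control, and 0.626 times with Ighm left out. An X core 1 base longer found the same count of 2 member promoters with both boxes. The libraries numbered 1 decide the unpaired spread, there are only 3 libraries a genotype, number 3 pairs libraries that differ in Y-linked RNA, and Ciita and H2-DMb1 lie near the low end of measured values, where depth differs between libraries.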

Other observations

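Genes that antigen-presenting cells use to co-stimulate T cells were measured beside class II. Cd80, a ligand of CD28 and CTLA-4, was at 8.92, 4.22 and 4.64 FPKM in the controls and at 6.26, 8.06 and 8.33 in the Junb-deficient libraries, in the order of their numbers. Cd86, the other ligand of these receptors, was at 9.34, 20.7 and 15.7 FPKM in the controls and at 12.2, 15.9 and 15.2 in the Junb-deficient libraries. Cd40, which receives help signals in B and dendritic cells, was at 2.17, 1.22 and 0.627 FPKM in the controls and at 3.36, 2.03 and 1.01 in the Junb-deficient libraries, higher in each number. None of the 3 was called in the unpaired or the block fit, and Cd80 was higher in numbers 2 and 3 alone (0.76, limma adjusted p = 0.0684).

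The plasma cell gene Igj, the joining chain of secreted antibodies, was at 6.99, 1.26 and 4.78 FPKM in the controls and at 31.3, 2.43 and 3.94 in the Junb-deficient libraries. Like Cd79a and Ms4a1 it was highest in Junb-deficient 1. Ncr1, a receptor of natural killer cells, was at 6.09, 2.55 and 3.36 FPKM in the controls and at 2.02, 11.6 and 6.60 in the Junb-deficient libraries, so it was higher in the Junb-deficient library of numbers 2 and 3, as Tyrobp and Fcer1g were, and lower in number 1.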
